A study of Homo sapiens with 15 samples.

Results

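The comparison described here is the step from 8 h to 24 h after doxycycline switched on a CDK2 short hairpin RNA in IMR32 cells. IMR32 is a human neuroblastoma line, long in culture, that carries extra copies of MYCN. It rests on the 3 arrays labelled with time 24 and the 3 labelled with time 8, 6 of the 15 arrays in the series, assigned to their groups by title. All 15 arrays come from 1 clone that carries a tetracycline repressor driven by the CMV promoter and the inducible hairpin vector, grown in 10% fetal calf serum. The target of the hairpin is CDK2 mRNA positions 546 to 566, and doxycycline was used at 100 ng/ml, so the 8 h and 24 h groups share the clone, the hairpin and the drug and differ in the time since its addition. The labels give the times (0, 8, 24, 48 and 72) without a unit, and hours are taken from knowledge of the study. The design holds no arm without doxycycline, and effects of the drug, of the hours in culture and of the knockdown cannot be told apart. Whether the 3 arrays of a time stem from separate cultures is not in the labels, and p-values here rest on array-to-array spread alone, which may be technical. In bulk RNA, fewer cells that express a gene and less of its RNA per cell cannot be told apart either.

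CDK2 pairs with cyclin E and then cyclin A and phosphorylates the retinoblastoma family of pocket proteins and replication factors, which releases E2F transcription factors and carries cells from G1 into S phase. The p53 protein acts on the same point from the other side, through p21, the product of CDKN1A, which inhibits CDK2. The 26S proteasome, a barrel of alpha and beta subunits capped by a regulatory particle of ATPases and lid subunits, degrades p53, p21, cyclins and many other proteins once they carry ubiquitin. MYCN-amplified neuroblastoma cells are of noradrenergic neuronal lineage and divide fast.

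Total RNA was hybridised to Affymetrix U133 Plus 2.0 arrays, and the values are MAS5 signals, a linear intensity scaled per array. Median signal was 15.1 to 18.4 at 8 h and 17.2 to 18 at 24 h, and the 3′ to 5′ ratios of GAPDH and ACTB overlapped between the times, with exact permutation p of 0.6 and 0.8 (2-sided, n = 3 a group, smallest possible p 0.1). Log2 values of the 8 h arrays correlated with those of the 24 h arrays at 0.979 to 0.987 across probe sets, and with each other at 0.982 to 0.987. Replicate 3 at 8 h stood apart in its signal at a spiked control, DapX (947.9, against 321.8 to 576.8 on the other arrays), and had the lowest array weight of the 6 (0.405). Replicate 3 at 24 h read the lowest of all arrays at the 18S control (81.1) and had a weight of 0.555. Noradrenergic neuronal markers were measured on all arrays (summed signal 19730 to 22260 over both times), among them GATA3, with mean signals of 3280 at 8 h and 3460 at 24 h, and PHOX2A, with 1250 and 1360. TH, which makes the precursor of dopamine, was near the bottom of the scale (0.6 to 9.5). So were SLC18A1 (1.0 to 8.9), STMN2 (1.3 to 6.3) and SLC18A2 (2.9 to 15.3) of the same list. Genes of the mesenchymal neuroblastoma list were measured as well (summed signal 8784 to 9250). Among them VIM had mean signals of 3940 at 8 h and 4040 at 24 h and TWIST1 1360 and 1400, while CD44 read 0.3 to 17.7. Of markers of other cell types, PTPRC read 0.4 to 4.0 (immune cells), CDH5 2.4 to 16.6 (endothelium) and EPCAM 0.9 to 8.3 (epithelium). The highest readings in those lists were 32.2 (CD79A), 34.4 (FLT1) and 28.2 (KRT8), where the filter on low values lay at 16.59, while the fibroblast markers COL1A1 (273 to 401) and COL6A1 (344 to 461) read well above it.

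CDK2 itself had already fallen before this step and moved little in it. Its signal was 245.5, 236.0 and 213.7 in the 3 arrays at 0 h, 100.8, 92.6 and 90.2 at 8 h, and 81.0, 87.8 and 72.4 at 24 h, followed by 52.7, 53 and 40.1 at 48 h and 30.0, 40 and 20.2 at 72 h. The 24 h arrays lay below the 8 h arrays without overlap, yet the log2 change of -0.20 ± 0.14 (SE) missed the threshold (limma, adjusted p = 0.47). The step before had brought a change of -1.16. The transcript differences below therefore belong to an interval that began with the targeted mRNA already reduced and ended before it was at its lowest.

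Over the step, 681 of 11774 genes passed limma's test at an adjusted p of 0.05 (5.78% called), 299 higher at 24 h (2.54%) and 382 lower (3.24%). Changes were of moderate size. The median absolute log2 change of the called genes was 0.46, and 7 rises and 10 falls exceeded a log2 change of 1. Over all genes, 12.2% had their 3 arrays at 24 h above the 3 at 8 h and 11.7% had them below. Among called genes, 295 of the 299 higher and 381 of the 382 lower were separate in this way. Separate arrays therefore add little to a call. The median over all genes was 0.017. With each array centred on its median this became -0.025 and the split became 143 higher and 349 lower, 29.1% higher against 43.9% in the main scaling. Without the 8 h replicate 3 array 172 genes were higher and 218 lower, without 24 h replicate 1 the counts were 168 and 263, without 24 h replicate 2 they were 191 and 296, and without 24 h replicate 3 they were 149 and 221. The adjoining steps, which share the 8 h or the 24 h arrays and last 8 and 24 h against 16 h here, had 53 genes called from 0 h to 8 h (0.45%) and 2702 from 24 h to 48 h (22.9%). The step from 48 h to 72 h, which shares no array with this one, had 1258 (10.7%).

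The greatest rises were in genes of p53 signalling, growth control and histones, with some of little described function. TMT1A, a thiol methyltransferase, read 109.2, 112.4 and 80.2 at 8 h and 273.0, 287.9 and 399.9 at 24 h, a log2 change of 1.52 ± 0.17 (SE). Of its 3 dimmer probe sets 1 was called higher too. PURPL, a long non-coding RNA known as a p53 target, rose from 18.2, 17.3 and 10.3 to 55.5, 49.8 and 73.7 (1.27 ± 0.16). DDIT4, which encodes an inhibitor of the growth kinase mTORC1, rose from 218.8, 202.8 and 171.2 to 470.7, 455.6 and 371.7 (1.07 ± 0.19). Separate arrays at the 2 times were a condition for naming these greatest rises and the greatest falls below. The histone genes H2AC25 (1.02) and H2AC6 (0.94), the mucin gene MUC19 (1.02), TAFA2, which encodes a secreted chemokine-like protein (0.98), and the antisense RNA ICA1-AS1 (0.98) followed, with C2CD2L, a lipid transfer protein (0.95). The sizes for TAFA2 and MUC19 depended on the processing. Over the alternatives that left the threshold as it was, they ran from 0.396 to 2.02 and from 0.525 to 1.48, with the calls kept. ICA1-AS1 and C2CD2L were dim at 8 h (4.7 to 35.8). Their calls were lost without 8 h replicate 1, at 0.78 (adjusted p = 0.089) and 0.70 (adjusted p = 0.066), and without other single arrays (ICA1-AS1 without 8 h replicate 3 or 24 h replicates 1 or 2, C2CD2L without replicate 3 of either time).

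The greatest falls were spread over several functions. PSMD10, a chaperone of proteasome assembly also known as gankyrin, went from 346.4, 285.5 and 321.2 to 133.5, 122.9 and 105.5 (-1.29 ± 0.13). DBI, the acyl-CoA binding protein, went from 2193.0, 2124.2 and 2176.2 to 857.9, 938.2 and 908.0 (-1.25 ± 0.11). ARF4, a small GTPase of the Golgi, went from 1621.9, 1500.2 and 1562.3 to 691.3, 694.3 and 731.0 (-1.13 ± 0.082). Each of these 3 genes was at well under its 8 h signal on all 24 h arrays, and every other probe set of them past the filter was called lower as well. B2M, the light chain of MHC class I and a common reference gene, fell by 1.04 on the log2 scale, from 2404.9, 2379.2 and 2431.2 to 1165.8, 1195.8 and 1134.5, and so did its other probe set (-0.98). Further falls were STS, steroid sulfatase (-1.13), UNKL (-1.11), the microtubule protein gene MAP1A (-1.10), the tetraspanin CD9 (-1.02), LINC01963 (-1.0), KIFBP, a kinesin-binding protein (-0.94), TCEAL9 (-0.92), NUDT21, a subunit of the 3′ end cleavage factor (-0.91), and GINS3 of the replicative helicase (-0.91). CGAS, the cytosolic DNA sensor, was called lower as well (-0.93) from a dim signal of 32.6 to 51.2 at 8 h, and lost its call without 24 h replicate 3 (-0.70, adjusted p = 0.11), 24 h replicate 2 or 8 h replicate 3. IGFBP5, which encodes a binding protein of insulin-like growth factors, read 650.8, 617.7 and 488.2 at 8 h and 262.4, 252.5 and 169.5 at 24 h on its brightest probe set (-1.31 ± 0.23). Its 3 other probe sets were not called, at -0.032, -0.29 and -0.58, and the mean of its probe sets was not called either. Falls were also smaller on the other probe sets of NUDT21 (-0.2, not called, and -0.47) and STS (-0.46, not called, and -0.69).

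**Figure D1:**
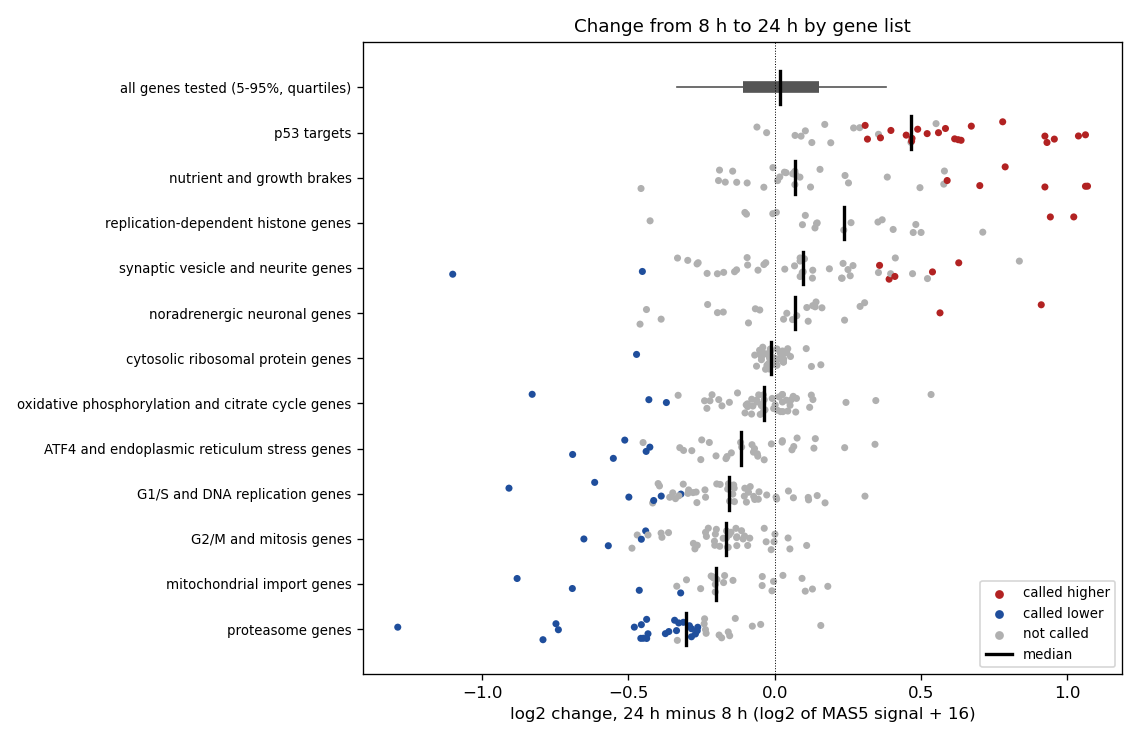
Log2 change from 8 h to 24 h of every tested member of 12 gene lists, 1 point per gene, coloured by whether it passed limma's test, with the list median as a black bar and the quartiles and the 5th to 95th percentiles of all tested genes on top. The p53 targets lie to the right (median 0.47) and the proteasome genes to the left (median -0.30), while the ribosomal protein genes sit near 0 (median -0.012).

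The p53 targets were the list with the highest share of rises. Of 34 measured members, 21 were called higher, where 2.54% of all genes were, and 0 were called lower, with 32 above 0 and a median log2 change of 0.47. Cell cycle arrest was represented by CDKN1A, which went from 748.8, 617.7 and 626.6 at 8 h to 1307.8, 1126.8 and 1488.5 at 24 h (0.96 ± 0.096, adjusted p = 1.11e-05). All 3 of its arrays at 24 h exceeded the highest at 8 h. SESN1, which encodes a sestrin that restrains mTORC1, went from 117.9, 106.1 and 127.5 to 245.0, 223.4 and 326.5 (1.06 ± 0.12), and its relative SESN2 from 71.2, 65.6 and 60.4 to 156.9, 104.6 and 162.2 (0.92 ± 0.15). CYFIP2, a regulator of actin, went from 216.4, 236.2 and 244.3 to 462.7, 406.0 and 507.9 (0.93 ± 0.088). The arrays of the 2 times did not overlap for any of these genes, but this was a condition for their place among the greatest rises.

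Among targets with other roles, RRM2B, the p53-inducible subunit of ribonucleotide reductase, went from 262.3, 216.3 and 234.9 to 401.9, 416.7 and 438.1 (0.78 ± 0.10). The death receptor genes TNFRSF10B (0.64 ± 0.069) and FAS (0.62 ± 0.13) rose, as did SPATA18, a gene of mitochondrial quality control (0.67), FBXW7, a ubiquitin ligase subunit (0.63), TP53INP1 (0.56), TIGAR, which lowers glycolytic flux (0.49), and RPS27L (0.36). PPM1D, a phosphatase that acts back on p53, went from a range of 1089.5 to 1136.5 to a range of 1491.1 to 1629.7 (0.47). Repair genes of the list were also higher, with DDB2 at 0.58, POLH at 0.52 and XPC at 0.40, and so were PHLDA3 (0.47), AEN (0.31) and CCNG1 (0.32). The calls of these 6 genes were not stable. Without 24 h replicate 3 POLH was at 0.37 (adjusted p = 0.13), XPC at 0.34 (adjusted p = 0.098) and CCNG1 at 0.24 (adjusted p = 0.082). DDB2 was at 0.41 (adjusted p = 0.15) without 8 h replicate 3. Without 24 h replicate 1 AEN was at 0.30 (adjusted p = 0.055) and PHLDA3 at 0.43 (adjusted p = 0.052). No other probe set of POLH was called (0.092 to 0.56), and neither was the mean of its probe sets. The other probe sets of RPS27L (0.39 and 0.46), SPATA18 (0.54), TP53INP1 (0.86) and PPM1D (0.21) were higher but not called either.

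ZMAT3, an RNA-binding p53 target, had a change of 1.04 that leaned on 1 array. Its 8 h signals were 350.0, 322.0 and 90.4, against 519.0, 451.7 and 440.2 at 24 h. Without 8 h replicate 3, the low array, the change was 0.46, and the call was lost without any 1 of the 24 h arrays (0.97 to 1.08, adjusted p 0.096 to 0.13), while 3 of its 4 other probe sets were called higher at 0.61 to 0.71. MDM2, the ubiquitin ligase of p53, stood at 0.29 ± 0.11 (adjusted p = 0.16) on its brightest probe set, with 2 of its 7 other probe sets called higher (0.39 and 0.62). BAX, a pore-forming apoptosis protein, stood at 0.55 ± 0.18 (adjusted p = 0.092), and its 8 h and 24 h arrays did not overlap (177.2 to 261.8 against 299.2 to 316.2). The same held for 12.2% of all genes in this direction. Between 16 (without 24 h replicate 1) and 20 of the 34 targets were called higher with 1 of the 6 arrays left out.

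Of 33 measured genes of a list drawn up for restraint of growth when nutrients or growth factors are short, 6 were called higher (where 2.54% of all genes were) and 0 lower. Their median was 0.069, against 0.017 over all genes, and 9 lay below 0. Besides DDIT4, SESN1 and SESN2 these were CCNG2, an unconventional cyclin under FOXO control (0.79 ± 0.13, from 241.4 to 317.8 up to 430.9 to 502.7), RRAGD, a Rag GTPase that docks mTORC1 on lysosomes (0.70), and PRKAA2, a catalytic subunit of AMP-activated kinase (0.59). RRAGD serves mTORC1, so not every member of the list is itself a brake. SESN1 and SESN2 stand in the p53 list too. TXNIP, which limits glucose uptake, read 133.9, 137.2 and 86.9 at 8 h and 218.1, 224.6 and 123.7 at 24 h (0.58 ± 0.33, adjusted p = 0.36), with overlapping arrays. MXI1, an antagonist of MYC taken from the hypoxia list, rose by 0.62 ± 0.099.

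The proteasome genes were the list with the highest share of falls. Of 36 measured, 23 were called lower, where 3.24% of all genes were, and 0 were called higher, with 35 below 0 and a median log2 change of -0.30. The falls ran through the complex. In the 20S barrel, 5 of 6 alpha subunit genes and 4 of 7 beta subunit genes were lower, including the catalytic subunits PSMB5 (-0.36), PSMB6 (-0.28) and PSMB7 (-0.26). In the 19S cap, 4 of 5 ATPase genes and 8 of 11 other genes, PSMD10 counted with them, were lower.

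The lid and ATPase genes with the greatest falls were sharply separated. PSMD14, the deubiquitinase of the lid, read 2007.1, 1954.8 and 2111.9 at 8 h and 1208.0, 1174.3 and 1105.1 at 24 h (-0.79 ± 0.068, adjusted p = 2.47e-06). PSMC2, an ATPase of the base, went from 1779.1, 1715.9 and 1985.8 to 1085.1, 1150.0 and 1007.6 (-0.75 ± 0.083). PSMD11, a lid scaffold subunit, went from 1601.1, 1673.1 and 1835.5 to 1036.2, 1014.9 and 985.3 (-0.74 ± 0.071). In each of them the highest 24 h array was well below the lowest 8 h array. The activator gene PSME4 fell by 0.46 on the log2 scale and POMP, which chaperones assembly of the barrel, by 0.44, although the mean of the probe sets of POMP was not called. PSMF1, a gene for a proteasome inhibitor and the only member above 0, stood at 0.16 ± 0.092 (adjusted p = 0.36).

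Some genes outside the list whose products work with the proteasome were picked because they were lower, so they add nothing to the count. The ubiquitin receptor gene ADRM1 changed by -0.57, VCP, the segregase that unfolds ubiquitinated proteins, by -0.37, its cofactors NPLOC4 and UFD1 by -0.39 and -0.24, and the deubiquitinase USP14 by -0.32. The calls of USP14 (-0.26, adjusted p = 0.11) and UFD1 (-0.21, adjusted p = 0.15) were lost without 8 h replicate 3 among other arrays, and that of NPLOC4 without 24 h replicate 2 (-0.37, adjusted p = 0.052). NFE2L1, the main transcription factor of proteasome genes, stood at -0.23 (adjusted p = 0.35) and NFE2L2, the factor of the antioxidant response, at -0.0085 (adjusted p = 0.97), both with overlapping arrays. A few redox genes were also picked with their values in view and stand for no list. TXNRD1, thioredoxin reductase, fell from 1742.6 to 1934.2 down to 1123.7 to 1214.7 (-0.64), and GCLM, a subunit of the enzyme that starts glutathione synthesis, changed by -0.90, with the call lost without 8 h replicate 3 (-0.73, adjusted p = 0.10) or 24 h replicates 1 or 2. NQO1, a quinone reductase, stood at -0.78 (adjusted p = 0.11), and 1 of its 2 other probe sets was called lower (-2.07).

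The individual falls of most proteasome genes were small, and their number depended on the arrays. Without 24 h replicate 3 13 were called lower, without 8 h replicate 3 14, and without any other 1 of the 6 arrays 16 to 20. In the 6 arrays fitted alone 12 were called lower. PSMB5 without 24 h replicate 3 stood at -0.27 (adjusted p = 0.11) and PSMB7 at -0.22 (adjusted p = 0.14), and PSMB6 without 8 h replicate 3 at -0.24 (adjusted p = 0.14). The other probe set of PSMB7 stood at 0.19, uncalled, and the mean of both at -0.039. PSMD10, PSMD14, PSMC2, PSMD11 and PSME4 kept their calls in every alternative of the processing that left the threshold as it was.

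Promoters were examined because the proteasome genes moved together. Antioxidant response elements, bound by NFE2L1 and NFE2L2, were searched as TGAC, any 3 bases and then GCA, on both strands, in RefSeq promoter windows of GRCh38.p14 (250 bases before to 50 after each start, 300 in all). Of 35116 windows over all genes, 3.18% held a match. Of the 36 proteasome genes, 31 had a window, and 7 of their 37 windows (18.9%) held a match, those of PSMA4, PSMB3, PSMD1, PSMD3, PSMD9, PSMD12 and PSME4. Of these genes PSMA4, PSMD1, PSMD9, PSMD12 and PSME4 were called lower over the step (-0.26, -0.46, -0.34, -0.33 and -0.46). PSMB3 (-0.24, adjusted p = 0.091) and PSMD3 (-0.33, adjusted p = 0.16) were not. PSMD14, PSMC2 and PSMD11, with the greatest falls after PSMD10, were not among the genes with a match. The calls of PSMD1 (-0.40, adjusted p = 0.068) and PSMD9 (-0.32, adjusted p = 0.059) were lost without 24 h replicate 3 and that of PSMD12 without 24 h replicate 1 (-0.29, adjusted p = 0.084), and each also without some other array. A match is a description of the letters in the window. The 250 bases before the start are shown for 3 of the genes that fell, 5′ to 3′ on the strand of the gene, with the match in capitals (a match on the other strand reads TGC, 3 bases, GTCA).
PSMD9 (chr12:121888540-121888789, plus strand): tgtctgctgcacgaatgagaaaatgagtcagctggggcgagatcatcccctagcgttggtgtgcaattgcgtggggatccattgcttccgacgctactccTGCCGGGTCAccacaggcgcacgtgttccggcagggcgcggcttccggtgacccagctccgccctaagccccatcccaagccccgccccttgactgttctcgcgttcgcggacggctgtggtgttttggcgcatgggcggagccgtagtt
PSMD12 (chr17:67366578-67366827, minus strand): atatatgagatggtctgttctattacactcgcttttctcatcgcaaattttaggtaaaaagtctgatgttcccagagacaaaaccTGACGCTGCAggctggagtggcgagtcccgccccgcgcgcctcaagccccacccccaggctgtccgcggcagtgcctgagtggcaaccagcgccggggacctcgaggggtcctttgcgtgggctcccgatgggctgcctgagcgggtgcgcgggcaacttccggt
PSME4 (chr2:53970994-53971243, minus strand): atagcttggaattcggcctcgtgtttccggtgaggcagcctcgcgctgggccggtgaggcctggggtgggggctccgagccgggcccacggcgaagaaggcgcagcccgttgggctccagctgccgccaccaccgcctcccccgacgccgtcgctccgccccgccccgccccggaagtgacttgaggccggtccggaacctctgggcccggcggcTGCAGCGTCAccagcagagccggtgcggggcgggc
The matches began 150, 165 and 35 bases before the start.

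**Figure D2:**
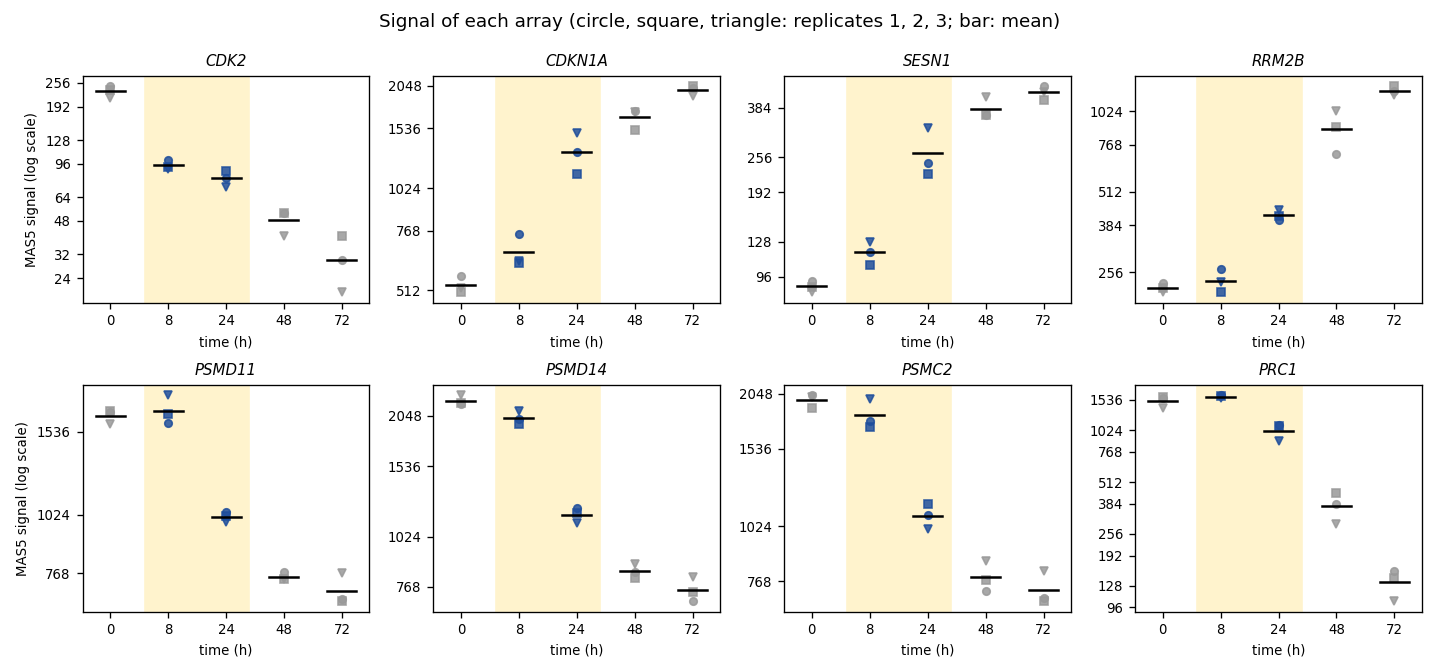
MAS5 signal (log axis) of 8 genes on each of the 15 arrays against time in hours (categories, not to scale), with circles, squares and triangles for replicates 1, 2 and 3, bars for the group means and the 8 h to 24 h step shaded. CDK2 lies at 72.4 to 100.8 throughout the shaded step, while CDKN1A, SESN1 and RRM2B move up and PSMD11, PSMD14, PSMC2 and PRC1 move down without overlap of the 3 arrays at either end.

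Genes of the division cycle lay mostly below 0 by 24 h, with few called. Of 50 genes of G1/S and DNA replication, 6 were called lower (12%, where 3.24% of all genes were) and 0 higher, with 41 below 0 and a median of -0.16. At an unadjusted p of 0.05, 19 were lower and 1 higher, where 20% of all genes passed in either direction. The 6 called were GINS3 (-0.91 ± 0.12), RPA2 of the single-strand binding complex (-0.62), the helicase recruiter MCM10 (-0.50), the histone mRNA binding protein SLBP (-0.41), MCM6 of the helicase (-0.39) and the licensing factor CDC6 (-0.32). GINS3 read 353.2, 299.9 and 422.2 at 8 h and 184.1, 192.6 and 169.1 at 24 h, with no overlap. The absence of overlap was a condition for its place among the greatest falls. Without 8 h replicate 3, 3 of the 6 were called, and SLBP stood at -0.34 (adjusted p = 0.054) and CDC6 at -0.25 (adjusted p = 0.14). GINS3, RPA2 and MCM10 kept their calls without each of the 6 arrays in turn.

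Of 45 genes of G2/M and mitosis, 4 were called lower (8.89%) and 0 higher, with 41 below 0 and a median of -0.17, against 46.2% of all genes below 0. At an unadjusted p of 0.05, 10 were lower and 0 higher, where 20% of all genes passed in either direction. PRC1, which bundles microtubules of the spindle midzone, read 1632.4, 1614.4 and 1565.5 at 8 h and 1091.0, 1083.9 and 882.9 at 24 h (-0.65 ± 0.14). The others were the kinesin KIF14 (-0.57), the transcription factor FOXM1 (-0.46) and ANLN, anillin (-0.44). All 4 had 24 h arrays below their 8 h arrays, yet none of the 45 was called without 24 h replicate 3 (PRC1 -0.55, adjusted p = 0.054), while 7 were called with replicate 3 of every time left out. FOXM1 and ANLN lost their calls without any 1 of the 6 arrays (-0.43 to -0.49 and -0.40 to -0.48), and KIF14 also without 8 h replicate 1.

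The regulators around CDK2 mostly missed the threshold. CDK1, the mitotic kinase, stood at -0.39 ± 0.22 (adjusted p = 0.34), CCNA2 at -0.39 ± 0.13 (adjusted p = 0.085), CCNE1 at -0.14, CCNE2 at -0.34 and CCND1 at -0.22, each with its 24 h arrays below its 8 h arrays and none called. Over all genes, 11.7% had their 24 h arrays below their 8 h arrays and 12.2% above. CDK4 (-0.047), CDK6 (-0.12), CDKN1B (-0.16), E2F1 (0.12), RB1 (0.044), MKI67 (-0.13) and PCNA (-0.084) had overlapping arrays. MYCN read 4663.1, 4076.0 and 4424.2 at 8 h and 4817.4, 4672.4 and 4700.3 at 24 h (0.11 ± 0.082, adjusted p = 0.50), so its arrays separated narrowly without a call. Of its 3 dimmer probe sets 1 was called higher (0.79, adjusted p = 0.035) and the others stood at 0.55 and 0.54, and MYCN was called with the mean of its probe sets (0.50, adjusted p = 0.034). BIRC5, survivin, stood at -0.20 (adjusted p = 0.45). Of the MYC-activated growth list, 1 of 27 rose (AHCY, 0.23) and 1 fell (EIF2S1, -0.33), and of the cyclins and CDKs CCNG1 and CCNG2 rose while CCNC, the cyclin of the mediator complex, fell by 0.32. E2F5 (0.44) and TFDP2 (0.32), an E2F and its partner, were called higher with CDKN1A in a list of 23. Calls came to 7.41% of the MYC-activated list, 8.57% of the cyclins and CDKs and 13% of this list of 23, against 5.78% of all genes. The 3 other probe sets of TFDP2 were not called (-0.062, 0.083 and -0.039), and the mean of its probe sets gave 0.077 (adjusted p = 0.65). The calls of AHCY (0.19, adjusted p = 0.14), EIF2S1 (-0.27, adjusted p = 0.12) and E2F5 (0.28, adjusted p = 0.23) were lost without 24 h replicate 3 and other arrays, those of CCNC without 8 h replicate 3 (-0.26, adjusted p = 0.093) and TFDP2 without 24 h replicate 1 (0.27, adjusted p = 0.15).

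Promoter windows of the 2 cell cycle lists were searched in the same way, for elements known from such genes. The cell cycle homology region TTTGAA, read on both strands, was present in 31 of 48 windows of G2/M genes (64.6%), against 15.2% of all windows. The E2F forms TTTCCCGC and TTTGGCGC were present in 20% and 18.2% of the 55 windows of G1/S genes, against 1.63% and 0.652% of all. Of the 43 windows of p53 targets, 0 held a full p53 site, 2 half-sites with no spacer, which 0.0171% of all windows held. These 3 promoters belong to genes called lower over the step and show the elements in capitals, before the start, on the strand of the gene and from the same build.
PRC1 (chr15:90994536-90994785, minus strand): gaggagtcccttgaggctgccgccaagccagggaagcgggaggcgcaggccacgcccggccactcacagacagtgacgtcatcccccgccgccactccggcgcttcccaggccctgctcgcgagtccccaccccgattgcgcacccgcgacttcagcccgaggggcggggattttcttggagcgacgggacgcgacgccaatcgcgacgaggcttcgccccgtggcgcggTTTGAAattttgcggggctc
ANLN (chr7:36389612-36389861, plus strand): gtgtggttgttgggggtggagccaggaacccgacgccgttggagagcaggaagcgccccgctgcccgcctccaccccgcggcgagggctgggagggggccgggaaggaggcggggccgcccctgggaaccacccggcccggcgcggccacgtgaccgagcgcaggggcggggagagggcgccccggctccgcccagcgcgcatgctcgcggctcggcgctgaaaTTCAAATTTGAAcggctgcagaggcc
MCM6 (chr2:135876444-135876693, minus strand): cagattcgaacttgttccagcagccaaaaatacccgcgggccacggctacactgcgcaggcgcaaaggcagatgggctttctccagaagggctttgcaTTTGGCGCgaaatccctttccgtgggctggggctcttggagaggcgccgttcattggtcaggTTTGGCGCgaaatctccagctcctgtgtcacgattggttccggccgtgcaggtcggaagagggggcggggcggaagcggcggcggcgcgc
In PRC1 the match began 20 bases before the start, in ANLN 2 matches on opposite strands began 26 and 20 bases before it, and MCM6 held 2 copies of TTTGGCGC, 152 and 90 bases before it.

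The steps on either side set these counts in time. From 0 h to 8 h, limma called 0.0934% of all genes higher and 0.357% lower. In that step 0 p53 targets and 0 cell cycle genes of either list were called, and 1 proteasome gene was called lower (PSMD10, -0.97). Above 0 lay 27 of 34 p53 targets, 26 of 50 G1/S genes, 41 of 45 G2/M genes and 6786 of all 11774 genes. From 24 h to 48 h, where 10.5% of all genes fell and 12.4% rose, all 50 G1/S genes and all 45 G2/M genes were called lower (medians -1.10 and -1.29), 18 p53 targets rose and 2 fell, and 11 proteasome genes fell and 1 rose. From 48 h to 72 h, where 4.54% rose and 6.14% fell, 8 p53 targets rose, while falls were called for 3 proteasome genes, 39 of G1/S and 43 of G2/M. These steps differ in length, and the first 2 share arrays with the step from 8 h to 24 h.

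Differences between steps were tested in the same fit. Against 48 h to 72 h, with no array in common, 616 genes differed (5.23%), 3.11% of all genes toward a higher and 2.12% toward a lower change in the earlier step. Of the p53 targets, 7 differed toward a higher change from 8 h to 24 h, led by SESN1 (0.87), CDKN1A (0.69) and SPATA18 (0.66). Of the proteasome genes 8 differed toward a lower change, led by PSMD10 (-1.03), PSMC2 (-0.65), PSMD14 and PSMD11 (-0.64 each). The G2/M genes differed the other way for 35 of 45 and the G1/S genes for 14 of 50. Without 24 h replicate 2 the count over all genes was 347.

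Against 24 h to 48 h, 362 genes differed (3.07%, with 2.09% higher, 0.985% lower), among them 36 of 50 G1/S and 30 of 45 G2/M genes, whose falls were smaller from 8 h to 24 h, and PSMD10, whose fall was greater (difference -1.09). No p53 target differed at an adjusted p of 0.05. The median of their differences was 0.12, against -0.017 over all genes, with 19 above 0 and 15 below. The total was 151 without 24 h replicate 1, 211 without 24 h replicate 2 and 170 without 24 h replicate 3. Against 0 h to 8 h, 4 genes differed (0.034%, with 0.00849% higher and 0.0255% lower): CYFIP2 toward a higher change (1.03), and B2M (-0.82), PSMD11 (-0.77) and NDRG4, a gene of neuronal differentiation (-1.03), toward a lower. NDRG4 had gone up by 0.40 in the step before and came down by 0.63 in this one. None of the 4 remained called without 8 h replicate 1, 8 h replicate 3 or 24 h replicate 1, and 1 or 2 genes were called without the others.

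**Figure D3:**
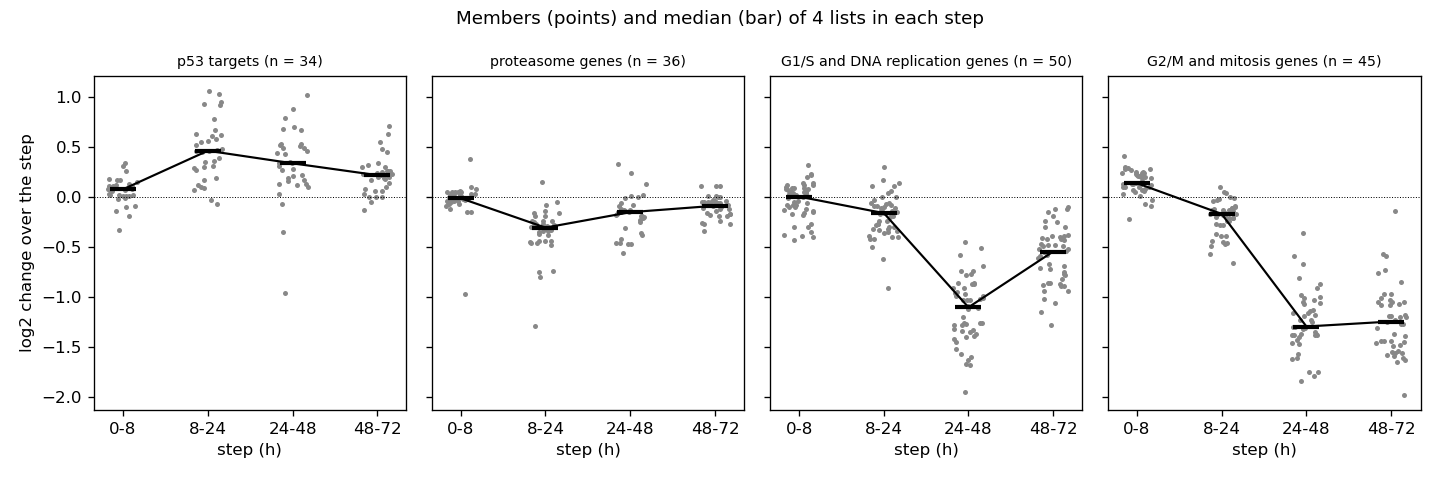
Log2 change of each tested member of 4 gene lists (points) over the 4 successive steps of the time course, with list medians as joined bars. The medians of the p53 targets (0.47) and proteasome genes (-0.30) are farthest from 0 in the step from 8 h to 24 h, and those of the G1/S and G2/M genes from 24 h to 48 h (-1.10 and -1.29).

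Mitochondrial, membrane traffic and stress lists held a few falls each, to be read against the 3.24% of all genes called lower. Of 26 mitochondrial import genes, 4 were called lower (15.4%) and 0 higher (median -0.20), led by TOMM20, the receptor of the outer membrane translocase, at 1410.2, 1369.7 and 1692.6 at 8 h and 797.5, 877.7 and 727.8 at 24 h (-0.88 ± 0.11). TOMM5, a small subunit of the same translocase, fell by 0.69. The 24 h arrays of both lay below the 8 h arrays without overlap, and the other TOMM20 probe set stood at -0.29 (adjusted p = 0.093). TOMM34 (-0.46) and TIMM13 (-0.32) were called lower too, TOMM34 not without 8 h replicate 1 (-0.36, adjusted p = 0.058) and TIMM13 not without 24 h replicate 3 (-0.19, adjusted p = 0.18) and the 3 arrays at 8 h. Of 52 oxidative phosphorylation and citrate cycle genes 3 were lower (5.77%), IDH3A of isocitrate dehydrogenase (-0.83), NDUFA1 (-0.43) and NDUFB9 (-0.37) of complex I, and NDUFA1 was at -0.26 without 24 h replicate 3 (adjusted p = 0.20). Of 47 RAB and ARF genes 3 were lower (6.38%), with 23 above 0 and a median of -0.0013. They were ARF4, RAB7A of late endosomes (-0.40) and RAB10 (-0.25), the latter 2 not without 8 h replicate 3 (-0.32 and -0.21, adjusted p = 0.17 and 0.16) or by the mean of their probe sets (-0.26 and -0.15).

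Of 34 genes of the ATF4 and endoplasmic reticulum stress responses, 5 were lower, where 3.24% of all genes were, and 0 higher (median -0.12). They were CEBPB, a partner of ATF4 (-0.69), the amino acid transporter gene SLC7A5 (-0.55), WARS1, tryptophanyl-tRNA synthetase (-0.51), SEL1L of the degradation machinery of the reticulum (-0.44) and CTH. WARS1 read 248.1, 255.6 and 268.4 at 8 h and 192.0, 165.1 and 170.5 at 24 h. Its arrays did not overlap, and it kept its call with each of the 6 arrays left out. CEBPB (-0.61, adjusted p = 0.054) and SLC7A5 (-0.41, adjusted p = 0.13) lost theirs without 24 h replicate 2, among others, and 2 probe sets of SEL1L beside the brightest were not called (0.14 and -0.22).

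In the lysosome and autophagy list of 43, 4 were lower and 1 higher, where 3.24% and 2.54% of all genes were. MAP1LC3B, which marks autophagosomes, read 322.4, 312.8 and 372.7 at 8 h and 218.3, 207.6 and 220.9 at 24 h (-0.60 ± 0.11). SQSTM1, an adaptor that carries ubiquitinated cargo to them (-0.55), the lysosomal galactosidase gene GLA (-0.40) and LIPA were lower, and ATG9A, a lipid scramblase of early autophagy, was higher (0.51). MAP1LC3B separated fully between the times, whereas the calls of SQSTM1 (-0.41, adjusted p = 0.19) and GLA (-0.31, adjusted p = 0.096) were lost without 8 h replicate 3 and that of ATG9A without 24 h replicate 3 (0.40, adjusted p = 0.14). The 2 other probe sets of SQSTM1 stood at 0.038 and -0.052, uncalled. Without 8 h replicate 3 only 1 of the list was called lower.

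Neuronal lists held calls both ways. Of 24 noradrenergic genes 2 rose and 0 fell (median 0.068), against 2.54% of all genes called higher and 3.24% lower. With p unadjusted at 0.05, 4 were higher and 5 lower, where 20% of all genes passed in either direction. The 2 that rose were DBH, which converts dopamine to noradrenaline, and the lineage factor ISL1. DBH read 101.8, 81.6 and 136.2 at 8 h and 222.4, 172.6 and 243.2 at 24 h (0.91 ± 0.20), and ISL1 322.6, 348.4 and 386.1 and then 495.8, 518.7 and 571.6 (0.57 ± 0.11). Neither overlapped, which for DBH was a condition for its place among the greatest rises. The call of DBH was lost without 24 h replicate 3 (0.82, adjusted p = 0.064) or 8 h replicate 2. In the synaptic vesicle and neurite list of 44, 5 rose and 2 fell (median 0.096), and at an unadjusted p of 0.05, 15 were higher and 5 lower. VAMP2 of the vesicle fusion machinery (0.63) and the microtubule protein DCX, doublecortin (0.54), rose with SV2A, UNC13B and DCLK1, against falls of MAP1A and the axonal kinesin KIF5C (-0.45). The 2 other probe sets of KIF5C were not called (-0.14 and -0.20), and its call was lost with the mean of its probe sets (-0.27, adjusted p = 0.058), as was that of VAMP2 (0.36). The call of VAMP2 was lost without 24 h replicate 3 (0.47, adjusted p = 0.14), that of DCX without 24 h replicate 1 (0.47, adjusted p = 0.091), and other single arrays ended them too.

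MAP1A read 398.5, 392.2 and 619.9 at 8 h and 187.1, 177.9 and 261.0 at 24 h. Every array at 24 h was below every array at 8 h, which was a condition for naming it among the greatest falls. CELF3, a neuronal splicing regulator of the same list, stood at 0.84 (adjusted p = 0.078). Of the axon guidance list of 38, PLXNB2 rose (0.45) and SEMA5A fell by 0.45, the latter not without any 1 of the 6 arrays (-0.35 to -0.51). Of 14 mesenchymal genes, 2 were lower, SNAI2 (-0.55) and JUN (-0.59), both lost without 8 h replicate 3 (-0.41, adjusted p = 0.20, and -0.38, adjusted p = 0.15). Over all genes, 2.54% were called higher and 3.24% lower.

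Of 21 replication-dependent histone genes 2 were called higher, where 2.54% of all genes were. They were H2AC25, at 51.5, 73.1 and 51.8 and then 141.0, 137.5 and 126.1, and H2AC6, at 12.4, 12.8 and 20.4 and then 41.2, 42.6 and 47.1. Both separated between the times, which was a condition for their place among the greatest rises. Of the 21, 17 lay above 0 (median 0.24). Histone genes form a family of near-identical copies, so which copy gave the signal is uncertain. The H2AC6 call was lost with a pseudocount of 64.

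The remaining lists held few or no calls, to be read against 2.54% of all genes called higher and 3.24% lower. Among 18 interferon and MHC genes ISG15, a ubiquitin-like modifier, rose by 0.56 from a dim 10.2 to 15.1 and B2M fell, with the ISG15 call lost without 24 h replicate 3 (0.50, adjusted p = 0.098) and 4 other arrays. Of 41 ribosomal protein genes RPL9 was lower (-0.47), at -0.34 without 24 h replicate 3 (adjusted p = 0.10). Of 48 splicing factor genes SRSF8 (0.30) and HNRNPH3 (0.26) were higher, and neither was without 8 h replicate 2 (0.23 and 0.21, adjusted p = 0.15 and 0.16). By limma's test 0 were called among 24 DNA repair, 19 cholesterol synthesis and 18 small RNA processing genes, with 2 higher and 6 lower, 1 and 2, and 3 and 0 at an unadjusted p of 0.05. That unadjusted threshold was passed by 20% of all genes in either direction. Of 11 reference genes only B2M was called.

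Fibroblast markers were the 1 marker list whose summed signal separated the times, at 913.4 to 1072 at 8 h and 1160 to 1193 at 24 h, with 7 of 7 tested members above 0 and 1 of them called, ACTA2, smooth muscle actin (0.74). ACTA2 read 42.6, 35.1 and 40.9 at 8 h and 63.9, 68.8 and 101.7 at 24 h and lost its call without 24 h replicate 3 (0.57, adjusted p = 0.054). Among the 13 markers on the array, COL1A1 (means of 338 at 8 h and 366 at 24 h), COL6A1 (344 to 461 over the 6 arrays), COL6A2 (83.4 and 96.6) and THY1 (85 and 99.4) were measured well above the filter level. DCN (7.2 to 17.1), FAP (0.6 to 11.5), POSTN (0.3 to 6.8) and COL3A1 (1.1 to 7.3) were near the bottom of the scale on all 6 arrays. COL1A2, not among the 7 tested members, went the other way. Its mean was 17.2 at 8 h and 3.47 at 24 h (2.3 to 21.3 over the 6 arrays). The sums of the immune, endothelial and epithelial lists overlapped between the times, and none of their 5 tested members was called. The part of fibroblast-like RNA in the results above was not tested.

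The calls of this step can be set beside those of the step from 48 h to 72 h, which shares no array with it. Of the 299 genes called higher from 8 h to 24 h, 50 were called higher again from 48 h to 72 h (16.7% of the 299 and 9.35% of the 535 called higher later, where 4.54% of all genes were), and 8 were called lower (2.68%, where 6.14% of all genes were). Of the 382 called lower, 58 were called lower again (15.2% of the 382, 8.02% of 723) and 10 higher (2.62%). The few genes called in opposite directions are described here as values only. DBH rose over the step, read higher still at 435.0, 332.8 and 328.6 at 48 h and came back to 193.0, 144.9 and 93.3 at 72 h. IDS, a lysosomal sulfatase, was lower at 24 h than on either side, with 531.2, 493.7 and 624.1 at 8 h, 325.2, 329.1 and 305.6 at 24 h, 522.4, 511.9 and 558.0 at 48 h. Of IDS the 5 other probe sets were not called (-0.37 to 0.18), and neither were the other probe sets of NQO2 (-0.15), JUN (-0.27, -0.63 and -0.41) and ZNF273 (-0.070).

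**Figure D4:**
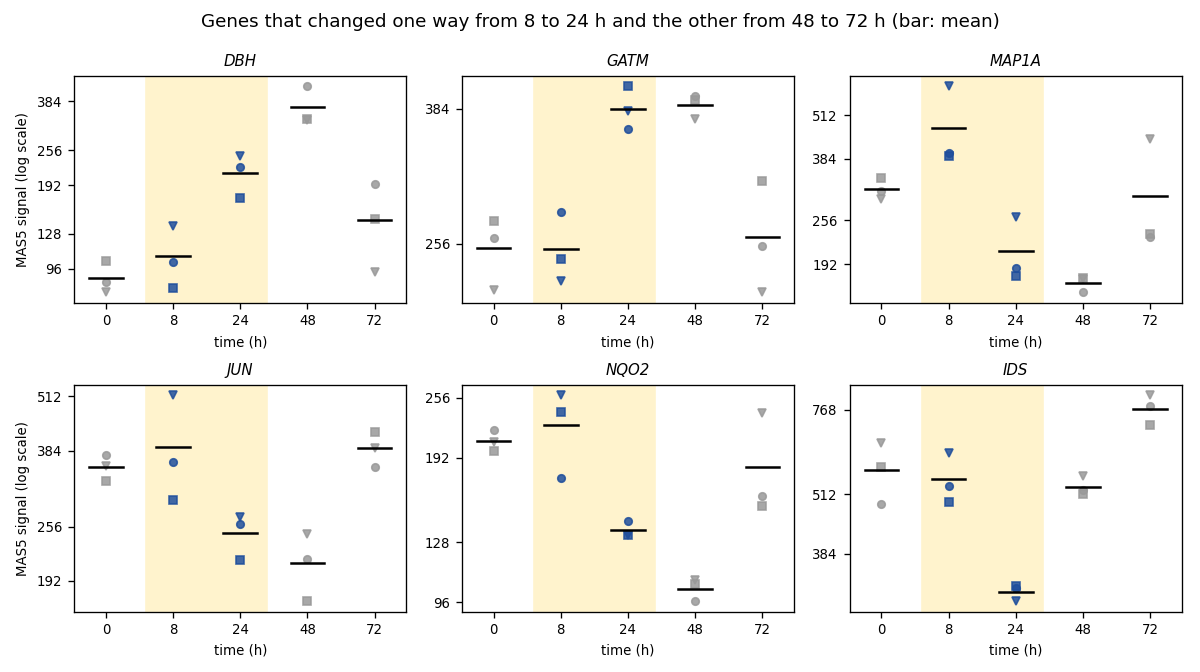
MAS5 signal (log axis) on each of the 15 arrays, against time in hours (categories, not to scale), of 6 genes called in opposite directions from 8 h to 24 h (shaded) and from 48 h to 72 h, with replicate symbols as circles, squares and triangles and bars for means. DBH and GATM go up and later down, and MAP1A, JUN, NQO2 and IDS go down and later up, with replicate 3 at 72 h (437.2) well above the other MAP1A arrays of that time (229.0 and 233.9).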

How the data were processed

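The study was used without a paper. Per the submitters' processing notes the arrays were processed with MAS5 and GCOS, with no versions stated, and 4 µg of RNA was labelled per the labels. The authors deposited linear MAS5 signals (intensity), for 54675 probe sets on 15 arrays, of which 62 are controls, 41091 name 1 gene, 1801 several and 11721 none. The mean after trimming 2% at each end was 100.01 on every array, so no further scaling was applied.

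Values were taken as log2(signal + 16). Probe sets at or above the median mean level (signal 16.59) were kept (27307), and the brightest probe set naming 1 gene stood for each of 11774 genes. The 5 times (3 arrays each) were fitted together with limma 3.58.1 (lmFit, eBayes with trend) in R 4.3.3, and p-values were Benjamini-Hochberg adjusted over all genes at 0.05. Fold changes are on the log2(signal + 16) scale, which understates dim genes. The number of arrays limits the precision. Tables and figures were made with Python 3.11.15, pandas 2.3.3 and matplotlib 3.10.9.

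The step and the 32 gene lists were chosen with earlier results of these data known, and lists are described by counts and medians. Genes were named as the 15 greatest rises and falls with separate arrays, up to 4 called members a list, 21 sentinel genes (18 tested), and up to 5 genes each way called in opposite directions in 8 h to 24 h and 48 h to 72 h. CTH, LIPA, RRAGD, PRKAA2, SV2A, UNC13B, DCLK1, MCM6, the proteasome partners and antioxidant genes, and further p53 and proteasome members, fall outside this and were picked with their values in view. On simulated data for this step (11774 genes) 4, 21, 47 and 50 of 50 genes were recovered at log2 changes of 0.25, 0.5, 1 and 2, with 9 false calls. The simulated arrays were of equal quality with independent noise, and only these genes changed, at 24 h alone. The figures therefore need not hold for the step itself.

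Alternatives were pseudocounts of 1 and 64, quantile or median scaling, the filter, the probe set rule, the variance prior, array weights, the arrays fitted, a replicate block, each of the 6 arrays left out, and a log2 change of at least 1 in addition. The log2 values were computed from the deposited signals. A fit without 8 h replicate 3 and 72 h replicate 3 was chosen after seeing the data. Promoter sequences are from RefSeq (GRCh38.p14).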

Additional observations from a re-analysis of the deposited data

Results flagged for a closer look

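Genes called in opposite directions from 8 h to 24 h and from 48 h to 72 h numbered 18 (8 higher then lower, 10 lower then higher), and up to 5 each way with the greatest difference between these steps are given here. Since the genes were picked for opposite calls, the differences (log2 change of the earlier minus that of the later step) are a description and their tests add no support. DBH had the greatest upward, at 2.21 ± 0.28 (SE), with GATM, the first enzyme of creatine synthesis, at 1.14, CYYR1 at 0.92, ZNF273 at 0.88 and AGBL5, a deglutamylase of tubulin, at 0.86. GATM read 281.6, 244.7 and 229.0 at 8 h, 360.9, 410.9 and 380.9 at 24 h, and 254.2, 308.7 and 221.0 at 72 h, so its 72 h arrays overlapped those of 8 h. Downward differences were those of MAP1A (-1.81 ± 0.29), JUN, an immediate early transcription factor (-1.43), NQO2, a quinone reductase (-1.37), IDS (-1.27) and SQSTM1 (-1.10). NQO2 read 174.2, 239.6 and 259.2 at 8 h, 142.0, 132.7 and 132.6 at 24 h, and 159.7, 152.6 and 238.4 at 72 h. With 8 h replicate 3 and 72 h replicate 3 left out together, the difference was -1.31 for MAP1A, -0.72 for SQSTM1 and 2.13 for DBH. Within 8 h to 24 h alone, the calls of SQSTM1 and CYYR1 were lost without any 1 of the 6 arrays, NQO2 without 8 h replicate 3, DBH without 2 arrays, JUN and ZNF273 without 5 of them and AGBL5 without 4. Groups of 3 arrays are too small for a test of single outlying arrays.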

How the results depend on the processing

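With 1 of the 6 arrays left out, 370 to 559 genes were called (149 to 226 higher, 218 to 333 lower), 13 to 20 proteasome genes lower and 16 to 20 p53 targets higher, and 347 to 571, 151 to 348 and 0 to 2 genes differed from the steps 48 h to 72 h, 24 h to 48 h and 0 h to 8 h. The 6 arrays alone gave 340 calls (118 higher, 222 lower) and 12 proteasome genes. Genes called higher numbered 143 with arrays centred on medians and 178 with no filter. A log2 change of at least 1 in addition left 17 genes (7 higher, 10 lower), 2 p53 targets and 1 proteasome gene, and 117, 145 and 2 differences. Leaving out replicate 3 at every time gave 15 proteasome genes. Differences from 24 h to 48 h numbered 233 with no filter and 588 with array weights. Those from 0 h to 8 h numbered 8 with a pseudocount of 64 or the brightest 25% of probe sets, 7 with quantile normalisation or a robust prior, 0 with median centring, 1 without the trend, 12 with array weights and 11 without replicate 3. Without 8 h replicate 3 and 72 h replicate 3 together, 574 genes were called (271 higher), and differences from the 3 steps numbered 392, 514 and 5. Residual correlations of same-numbered 8 h and 24 h arrays were -0.0083 to 0.14, and 2 of 6 arrays correlated best with their own number. So few arrays cannot settle whether replicate numbers pair them. A replicate block gave 958 calls (429 higher, 529 lower), 22 p53 targets, 25 proteasome genes and 1054, 613 and 17 differences. The cause of these shifts was not tested. Uncalled genes near 0 changed sign: CDK4 (-0.098 without 8 h replicate 1, 0.018 by quantile normalisation, 0.029 without replicate 3, 0.018 without 8 h replicate 3, also with 72 h replicate 3 left out), CDK6 (0.16, mean of probe sets), CDKN1B (0.0060) and E2F1 (-0.044) without replicate 3, RB1 (-0.12 without 8 h replicate 1, 0.18 without 8 h replicate 3) and NFE2L2 (0.058 by quantile normalisation, 0.0093 by mean of probe sets, 0.040 without 8 h replicate 3, also with 72 h replicate 3 left out, 0.041 without 24 h replicate 1 and -0.066 without 24 h replicate 3). Of 117 named and called genes, 51 kept direction and call in 22 settings and 0 changed sign. Other probe sets existed for 46 of 86 genes named by rule, and in 17 of the 46 none was called the same way.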
